A study of Mus musculus with 2 samples.

Results

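Collagen genes encoding chains of the fibrillar collagens I, III, V and XI and of collagen VI were followed in RNA of the RPE-choroid, that is, the retinal pigment epithelium with the vascular layer on its outer side. They were found by name in the gene column of the count table, which holds 23420 genes, and all 10 of 10 were present and passed the filter on low counts. Mice were 11 to 13 months old and untreated. One group is labelled AhR -/- (strain B6.129-AhRtm1Bra/J) and carries a targeted allele of Ahr, the aryl hydrocarbon receptor gene. The other is labelled AhR +/+ (C57BL6/J). Each group has 3 animals and each library pools the RNA of 2 eyes of which the front part and the retina had been taken off. Polyadenylated RNA was sequenced, and reads were counted per gene.

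Collagens are built from 3 chains wound into a helix of repeating glycine-led triplets. Collagen I, of the alpha 1 and alpha 2 chains, makes up most of the thick fibrils of the sclera and of the choroidal stroma. Collagen III joins it in extensible tissue, and collagens V and XI lie inside the fibrils and set their diameter. Collagen VI forms beaded microfibrils around cells, from the chains encoded by Col6a1, Col6a2 and Col6a3. Fibroblasts of the choroid and sclera are the main source of all of them in the back of the eye.

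Libraries held 18058725 to 28692624 gene counts. The targeted gene, Ahr, was counted in all 6 libraries, at 40.6 to 45.4 CPM (counts scaled to the library size, as defined with the processing) in the AhR -/- libraries and 19.7 to 26.0 CPM in wild type. Its log2 fold change was 0.95 (edgeR adjusted p = 0.0991). A count over the whole gene does not check a deletion of part of it, and the transcript was not lower in the AhR -/- libraries. They are therefore called knockout-labelled, and directions rest on the labels. Of the markers of RPE fixed for a check of the tissue, Rpe65, the retinoid isomerase, stood at 1326 to 2987 CPM. Epithelial markers of cornea and conjunctiva, outside the dissected tissue, summed to between 3636 and 12832 CPM in knockout-labelled and between 2141 and 5482 CPM in wild-type libraries. Animal 1 of both groups was female by its Xist level and the others were male.

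All 10 collagen genes had lower mean levels in the knockout-labelled libraries, by a log2 fold change of -0.28 to -1.17 with a median of -0.67, against 0.01 over the 15796 genes tested, of which 48.8% were below 0. In edgeR's quasi-likelihood test, with p-values adjusted over all genes tested, 0 of 10 passed an adjusted p of 0.05, where 8 genes (0.0506%) did over the whole table. Before adjustment, 9 of the 10 were lower with a p under 0.05, as were 6.62% of all genes. All 3 knockout-labelled libraries lay below all 3 wild-type libraries for 8 of the 10, against 9.96% of all genes. The number of calls differed between tools. Without the filter on low counts edgeR called Col1a1 (adjusted p = 0.0476), against 0.0722% of all genes. DESeq2 called 5 of the 10 as lower (Col1a1, Col1a2, Col5a1, Col6a2 and Col11a1; 1.37% of all genes) and the edgeR exact test called 4 (the same without Col1a2; 0.918%). The authors' deposited table lists those 4, Col1a1, Col6a2, Col5a1 and Col11a1, at an FDR under 0.05 (0.749% of its genes were lower at that FDR). Its log2 fold changes, turned so that negative means lower in the knockout, are -1.20, -0.83, -0.75 and -0.75. Being bulk tissue, fewer cells that make collagen and less collagen RNA per cell cannot be told apart here.

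Among the collagen I chains, Col1a1 encodes the alpha 1 chain and had the largest difference of the 10. Its level was 255, 380 and 333 CPM in knockout-labelled animals 1 to 3, against 701, 615 and 859 CPM in wild-type animals 1 to 3. No knockout-labelled library came near the lowest wild-type one, and the group mean was 44.5% of wild type (322 ± 63.1 against 725 ± 124 CPM, SD, n = 3 each; log2 fold change -1.17, SE 0.19, edgeR adjusted p = 0.0946). Col1a2, for the alpha 2 chain, stood at 1126, 1497 and 1273 CPM with the knockout label against 2018, 1639 and 2441 CPM in wild type. Here knockout-labelled animal 2 came within reach of wild-type animal 2, though the groups did not overlap. Its log2 fold change was -0.65 (SE 0.19, edgeR adjusted p = 0.204).

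Col3a1 encodes the single chain of collagen III and showed the smallest difference of the 10. It stood at 137, 211 and 131 CPM in the knockout-labelled libraries and at 242, 168 and 172 CPM in wild type, so the groups overlapped, with knockout-labelled animal 2 above wild-type animals 2 and 3. Its log2 fold change was -0.28 (SE 0.22, edgeR adjusted p = 0.605), and leaving out 1 library it ran from -0.09 (without wild-type animal 1) to -0.54 (without knockout-labelled animal 2).

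The collagen V chains and the alpha 1 chain of collagen XI, which nucleate and limit the growth of fibrils, were present at lower levels. Col5a1 stood at 31.1, 41.9 and 38.7 CPM with the knockout label against 66.4, 57.2 and 61.6 CPM in wild type, with a clear gap between the groups (log2 fold change -0.73, SE 0.15, edgeR adjusted p = 0.128). Col5a2, encoding its partner chain, stood at 43.6, 46.8 and 36.2 CPM against 62.8, 52.3 and 50.1 CPM. Its groups were separate but close (log2 fold change -0.39, SE 0.15, edgeR adjusted p = 0.305). Col5a3, for a further chain found in fewer tissues, was the scarcest member at 10.5, 10.8 and 7.37 CPM against 17.1, 16.7 and 12.3 CPM, or 183 to 456 counts per library. Its groups were separate, with 10.8 CPM the highest knockout-labelled and 12.3 CPM the lowest wild-type value (log2 fold change -0.69, SE 0.24, edgeR adjusted p = 0.259). Col11a1 was alike in the 3 knockout-labelled animals, with 33.8, 31.2 and 32.3 CPM, and scattered in wild type, at 67.0, 39.6 and 56.0 CPM. Its log2 fold change was -0.74 (SE 0.19, edgeR adjusted p = 0.178).

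Of the collagen VI chains, Col6a2 differed most. It stood at 64.7, 84.8 and 79.7 CPM with the knockout label against 147, 119 and 136 CPM in wild type, again with a clear gap (log2 fold change -0.81, SE 0.14, edgeR adjusted p = 0.114). Col6a1, encoding the alpha 1 chain, stood at 139, 181 and 114 CPM against 207, 167 and 233 CPM, and its groups overlapped because knockout-labelled animal 2 lay above wild-type animal 2. Its log2 fold change was -0.48 (SE 0.19, edgeR adjusted p = 0.314). Col6a3, for the long alpha 3 chain whose end is the source of endotrophin, stood at 70.0, 77.1 and 70.4 CPM against 102, 82.1 and 95.0 CPM. The knockout-labelled animals were alike, and the groups were separate by a small margin (log2 fold change -0.36, SE 0.12, edgeR adjusted p = 0.252).

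**Figure D1:**
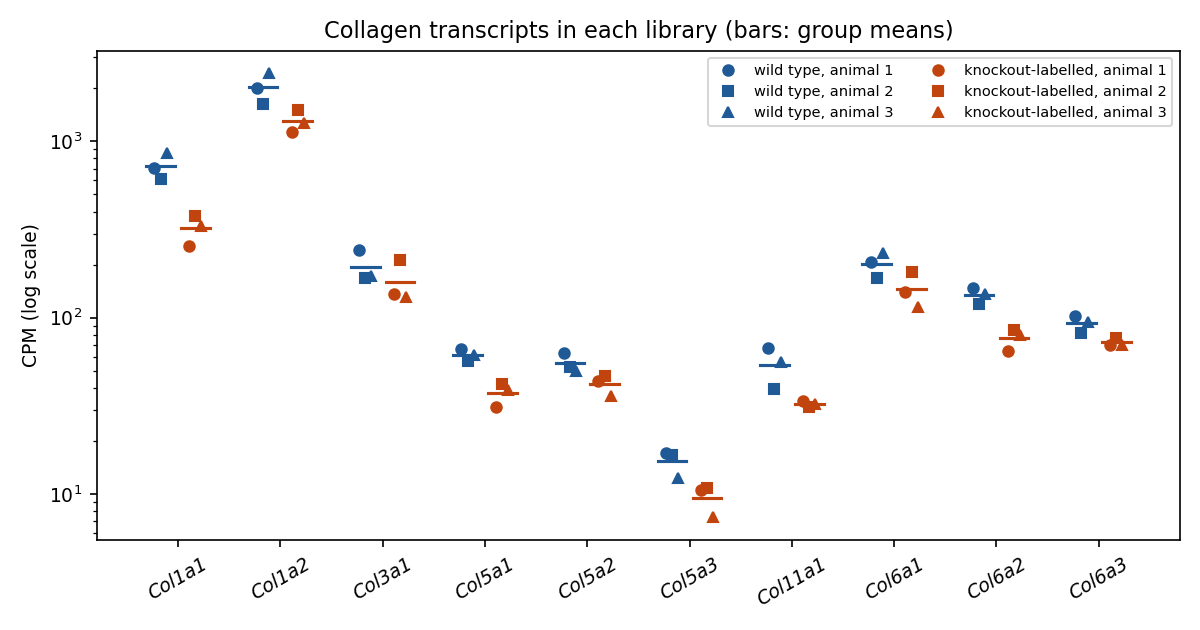
CPM of the 10 collagen genes (log axis) in each of the 3 wild-type (blue) and 3 knockout-labelled (red) libraries; point shapes mark animals 1 to 3 and bars are group means. The groups are separate for 8 genes and overlap for Col3a1 and Col6a1, and the widest gap is that of Col1a1, at 255 to 380 against 615 to 859 CPM.

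The libraries were not equally low across the set. With each gene's log2 CPM centred on its mean over the 6 libraries, the 10 genes averaged -0.41, -0.12 and -0.41 in knockout-labelled animals 1 to 3 and 0.46, 0.14 and 0.35 in wild-type animals 1 to 3. Knockout-labelled animal 1 held the lowest value of 5 genes (Col1a1, Col1a2, Col5a1, Col6a2 and Col6a3) and knockout-labelled animal 3 that of 4 (Col3a1, Col5a2, Col5a3 and Col6a1). Wild-type animal 1 held the highest value of 7 genes and wild-type animal 3 that of the remaining 3, which were Col1a1, Col1a2 and Col6a1. Together the 10 genes took 0.187% to 0.258% of the gene counts in knockout-labelled and 0.289% to 0.415% in wild-type libraries. Without knockout-labelled animal 1, edgeR called 3 of the 10 as lower, Col1a1 (adjusted p = 0.0231), Col6a2 (0.0272) and Col5a1 (0.0389), against 2.4% of all genes, and without any other library it called 0.

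Levels of different genes were compared as CPM per kilobase of the longest coding transcript. In wild type Col1a2 was the highest at 306 to 457 CPM per kilobase, followed by Col1a1 at 104 to 145. Col6a1, Col3a1 and Col6a2 came next, at 40.8 to 56.7, 30.1 to 43.4 and 25.6 to 31.7 CPM per kilobase, and among these 3 each overlapped the next. Col6a3, Col5a2, Col5a1 and Col11a1 formed a lower run between 5.17 and 10.1 CPM per kilobase, again with neighbours that overlapped. Col5a3 was last at 2.00 to 2.80 CPM per kilobase. These levels depend on the transcript taken for the length, since GENCODE lists further transcripts at most of these loci. They were also not corrected for GC content, which ran from 48.0% in Col11a1 to 61.6% in Col5a3.

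Ratios between chains of one collagen were taken within each library, where scaling between libraries drops out. The ratio of Col1a1 to Col1a2 was lower in all 3 knockout-labelled libraries: the log2 ratio of counts was -2.14, -1.98 and -1.93 against -1.52, -1.41 and -1.51 in wild type. Per kilobase of the longest coding transcripts the ratio of counts was 0.204, 0.229 and 0.236, against 0.314, 0.339 and 0.317 in wild type. Such a ratio depends on the transcripts taken for the lengths and is not a number of transcript copies. The difference in log2 ratio was -0.54 (two-sided exact permutation test, p = 0.1, the smallest that 3 against 3 libraries can give; adjusted p = 0.267 over the 4 ratios computed). Col1a1 transcripts have a GC content 3.22 percentage points above those of Col1a2, and with the GC correction described further on the difference was -0.43. The ratio of Col6a2 to Col6a1 was low in knockout-labelled animals 1 and 2 (-1.11 and -1.09) but not in animal 3 (-0.52), against -0.49, -0.49 and -0.77 in wild type (difference -0.33, exact permutation p = 0.2). Without knockout-labelled animal 3 that difference was -0.52. The ratio of Col6a3 to Col6a1 differed by 0.14 (exact permutation p = 0.4) and that of Col5a1 to Col5a2 by -0.35 (exact permutation p = 0.2), both with overlapping groups. The former was 0.0015 without knockout-labelled animal 3 and 0.27 without animal 2, and the latter was -0.20 without knockout-labelled animal 1. Col5a1 exceeds Col5a2 in GC content by 8.37 points, and the difference of that ratio was -0.12 with the GC correction.

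**Figure D2:**
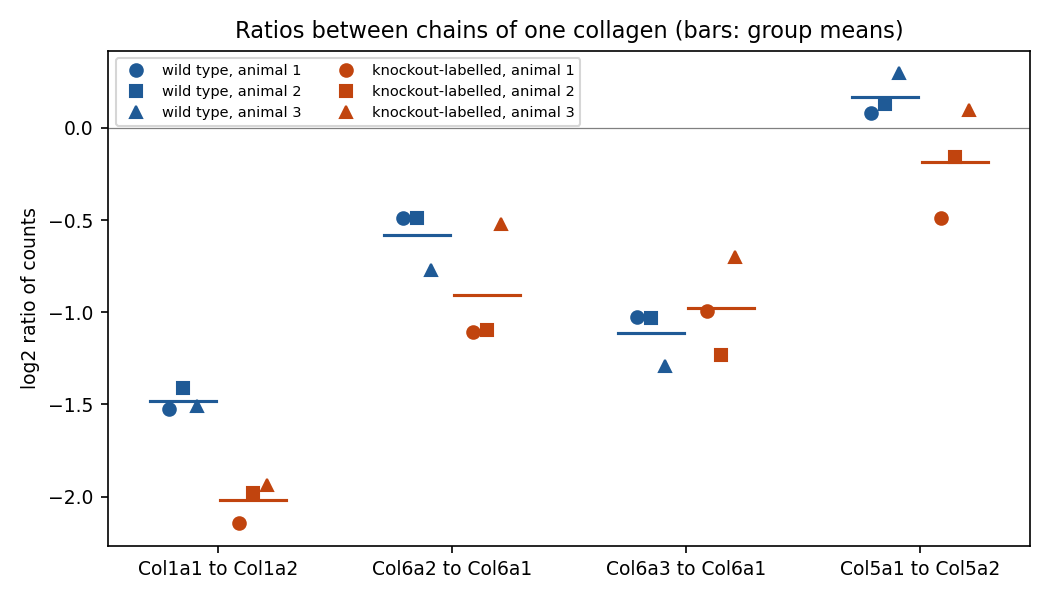
Log2 ratio of counts of both chains named on the horizontal axis in each library, with wild type in blue, knockout-labelled in red, shapes for animals 1 to 3 and bars for group means. The groups are separate for Col1a1 to Col1a2 (-2.14 to -1.93 against -1.52 to -1.41) and overlap for the other 3 ratios.

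In GRCm38 the genes lie on 7 chromosomes. Col1a1 lies at chr11:94936224-94953042 on the plus strand and Col1a2 at chr6:4504814-4541544 on the plus strand. Col3a1 (chr1:45311538-45349706, plus strand) and Col5a2 (chr1:45374321-45503282, minus strand) face each other with their ends 24.6 kb apart and no coding gene between. Col6a2 (chr10:76595762-76623630) and Col6a1 (chr10:76708792-76726168) both lie on the minus strand, 85.2 kb apart, also with no coding gene between. The log2 fold changes of these neighbours were -0.28 and -0.39 in the first pair and -0.81 and -0.48 in the second. Col6a3 lies at chr1:90765923-90843971 (minus strand), Col5a1 at chr2:27886425-28039514 (plus strand), Col5a3 at chr9:20770050-20815067 (minus strand) and Col11a1 at chr3:114030540-114220718 (plus strand). The longest coding transcripts have 28 exons (Col6a2) to 67 exons (Col5a3 and Col11a1). Exons of Col5a1 share 212 bases with non-coding transcripts of the opposite strand and those of Col3a1 share 141 bases with a microRNA gene. Other members share no exonic base with another gene.

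The aryl hydrocarbon receptor binds DNA with its partner Arnt at sites with the core GCGTG. This core, the CCAAT box (CCAAT) and the GC box bound by Sp1 (GGGCGG) were looked for on both strands in the 250 bases before each RefSeq start (build GRCm38.p6). Windows were found for 8 of the 10 genes, 9 windows in all, and Col1a1 and Col5a2 had none. The GCGTG core was present in 2 of 9 windows (Col5a3 and 1 of 2 starts of Col6a2), against 28.2% of the 32851 windows of all genes. CCAAT was present in 3 of 9 (Col1a2, Col5a3 and Col11a1), against 33.8%, and GGGCGG in 6 of 9, against 32.7%. No base of these windows belonged to matches of more than 1 motif. Shown here are 4 windows that overlap no annotated exon: Col5a3 with the core in 2 places, Col5a1 and Col11a1 without it, and Col3a1, the gene with the smallest difference, with none of the 3 motifs. Capitals mark matches to any of the 3 motifs on either strand, and each sequence runs 5′ to 3′ on the strand of its gene, ending at the base before the start. They lie at chr9:20815068-20815317 (minus strand), chr2:27886175-27886424 (plus strand), chr3:114030290-114030539 (plus strand) and chr1:45311288-45311537 (plus strand).
Col5a3: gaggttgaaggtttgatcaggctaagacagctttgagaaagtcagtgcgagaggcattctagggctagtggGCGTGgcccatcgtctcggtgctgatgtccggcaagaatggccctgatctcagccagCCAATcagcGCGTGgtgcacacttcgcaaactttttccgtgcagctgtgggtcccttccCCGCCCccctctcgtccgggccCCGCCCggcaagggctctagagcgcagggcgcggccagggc
Col5a1: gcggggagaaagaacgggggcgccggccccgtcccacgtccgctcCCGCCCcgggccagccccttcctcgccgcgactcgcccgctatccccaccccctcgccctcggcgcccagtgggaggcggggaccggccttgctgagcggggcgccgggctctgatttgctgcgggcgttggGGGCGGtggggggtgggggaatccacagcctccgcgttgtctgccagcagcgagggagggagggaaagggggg
Col11a1: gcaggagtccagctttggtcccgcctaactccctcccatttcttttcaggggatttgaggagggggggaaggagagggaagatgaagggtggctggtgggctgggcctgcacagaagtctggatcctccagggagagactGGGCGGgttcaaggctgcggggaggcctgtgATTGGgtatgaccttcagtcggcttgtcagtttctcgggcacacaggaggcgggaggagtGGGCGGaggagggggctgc
Col3a1: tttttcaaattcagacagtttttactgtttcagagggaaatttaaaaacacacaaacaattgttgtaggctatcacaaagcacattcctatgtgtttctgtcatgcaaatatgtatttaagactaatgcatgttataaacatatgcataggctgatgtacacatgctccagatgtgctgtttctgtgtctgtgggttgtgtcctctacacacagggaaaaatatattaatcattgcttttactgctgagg
The GC content of these windows was 62.8%, 76.4%, 62.4% and 35.2%, against a median of 52.4% over all windows. Genes with the core in a window were Col6a2 and Col5a3, with log2 fold changes of -0.81 and -0.69. Those with windows but without it were Col11a1 (-0.74), Col5a1 (-0.73), Col1a2 (-0.65), Col6a1 (-0.48), Col6a3 (-0.36) and Col3a1 (-0.28). A relation between the core and the fold changes was not tested. A match is a description of letters and not a binding site.

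Over the whole table, transcripts of higher GC content had lower fold changes (Spearman correlation -0.34 across 15654 genes, which are not independent replicates). The median GC content of the 10 collagen transcripts was 55.9%, from 48.0% in Col11a1 to 61.6% in Col5a3, against 50.2% over all tested genes, and 8 of the 10 lay above that. The 977 genes within 1 percentage point of the GC content of Col1a1 (58.9%) had a median log2 fold change of -0.22. With offsets that removed each library's trend on GC content, the log2 fold change came nearer to 0 for 8 of the 10. That of Col1a1 went to -0.90, that of Col5a3 to -0.35 and that of Col6a1 to -0.30. Col11a1 and Col5a2, the members of lowest GC content, went from -0.74 to -0.79 and from -0.39 to -0.40. The median over the 10 was -0.45 with this correction, and 0 were called.

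**Figure D3:**
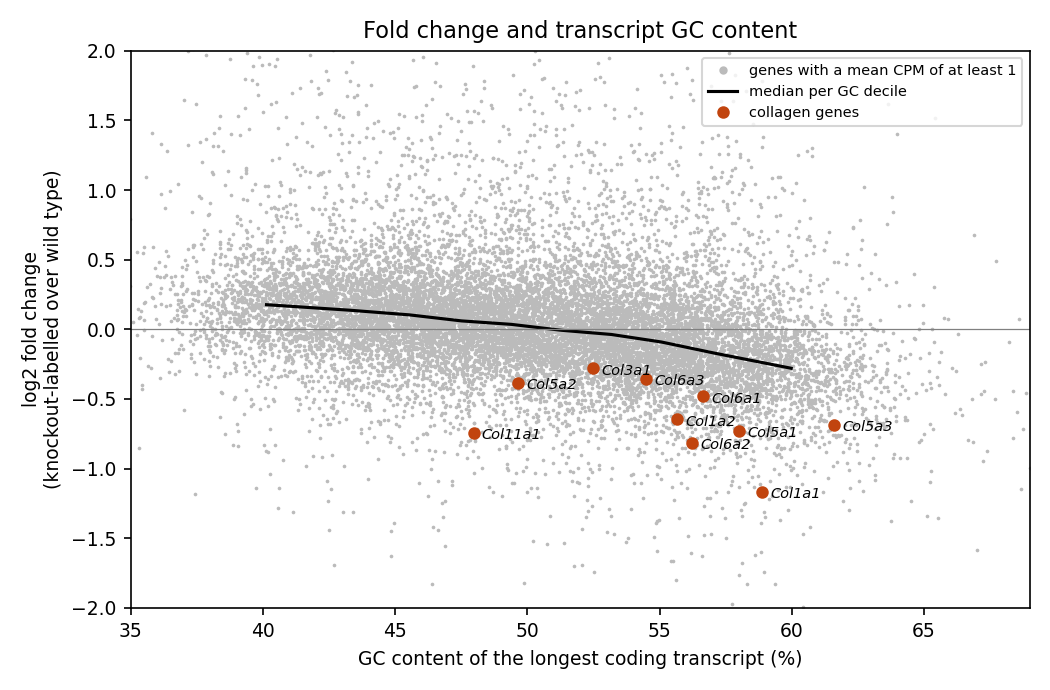
Log2 fold change against the GC content of the longest coding transcript for genes averaging 1 CPM or more (grey, 14699 genes, of which 131 lie outside the axes), with the median of each GC decile (black line) and the 10 collagen genes (red). The decile medians go from 0.18 to -0.28 as GC content increases, and all 10 collagen genes lie below the line.

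Other genes that mark fibroblasts and sclera varied beside the collagens. Markers of sclera and cartilage, 10 of 11 tested, summed to between 657 and 1063 CPM in knockout-labelled and between 1098 and 1786 CPM in wild-type libraries, with 7 of 10 below 0 and a median log2 fold change of -0.49. The 3 above 0 were Cilp, Matn3 and Lect1, named after their values were seen. Among them Chad, encoding chondroadherin, stood at 114, 269 and 177 CPM against 472, 316 and 557 CPM, and Fmod, encoding the fibril-bound proteoglycan fibromodulin, at 285, 441 and 340 CPM against 674, 434 and 673 CPM. Comp, for cartilage oligomeric matrix protein, overlapped between the groups at 200, 247 and 207 CPM against 181, 230 and 384 CPM (log2 fold change -0.28, and 0.01 with the GC correction). Fibroblast markers, 9 of 9 tested, summed to between 7781 and 8075 CPM against 8654 to 9950 CPM, with 8 of 9 below 0 and a median of -0.12. Of these Dcn, encoding decorin, stood at 6034, 5930 and 5561 CPM against 5988, 6125 and 7141 CPM, so its groups overlapped where those of Col1a1 and Col1a2 did not. Gsn, encoding the actin-severing protein gelsolin, stood at 717, 902 and 892 CPM against 1278, 1312 and 1566 CPM without overlap (log2 fold change -0.73, edgeR adjusted p = 0.143). Fbln1, for the matrix protein fibulin-1, overlapped at 305, 378 and 478 CPM against 514, 406 and 346 CPM (log2 fold change -0.12). The 1 marker above 0 was Lum, encoding lumican and named after its values were seen, which stood at 408, 345 and 433 CPM against 278, 353 and 310 CPM. Bone markers summed to at most 8.21 CPM in knockout-labelled and 11.2 CPM in wild-type libraries, with Bglap and Ibsp at 0 counts. Corneal stroma markers, 4 of 4 tested, summed to 9446 to 11405 CPM against 9441 to 11651 CPM, with 2 above 0 and 2 below. Most of that sum was Ptgds in every library, at 10729, 6167 and 7929 CPM against 9023, 10863 and 8788 CPM. The sum therefore mainly follows that gene and does not measure the amount of corneal stroma. Aldh3a1 stood at 377, 3160 and 2416 CPM against 1050, 544 and 398 CPM (log2 fold change 1.58, edgeR adjusted p = 0.319). Ptgds and Angptl7 had log2 fold changes of -0.21 and -0.31. Kera, the keratocan gene, also named after its values were seen, stood at 1.55 to 14.2 CPM and 2.52 to 6.99 CPM. The groups overlapped for all 4.

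Markers of some other cell types also differed between the groups, and those of others overlapped. Endothelial markers summed to between 675 and 1012 CPM in knockout-labelled and between 1049 and 1109 CPM in wild-type libraries, with 9 of 10 below 0 (median log2 fold change -0.41). Those of pericytes and smooth muscle summed to between 818 and 1027 CPM against 1096 to 1234 CPM, with 7 of 8 below 0 (median -0.32). Neutrophil markers summed to 56.7 to 122 CPM against 6.01 to 11.8 CPM, with 4 of 5 tested above 0 and Ngp and Mpo at 0 counts. Most of the knockout-labelled sum was Ltf, at 88.0, 46.0 and 62.2 CPM against 6.62, 1.82 and 3.25 CPM. Groups overlapped for Retnlg and for Camp, the 1 marker below 0 (log2 fold change -0.20). The sum therefore mainly follows Ltf in those libraries, and a difference in neutrophil number was not tested. Erythroid markers summed to 1061, 55.7 and 77.0 CPM in knockout-labelled animals 1 to 3, so that animal 1 stood apart, against 4.28 to 33.6 CPM in wild type, with Hba-a1 and Hba-a2 listed at 0. Sums overlapped for the markers of RPE (37061, 21208 and 23032 against 28538 to 39343 CPM) and of Schwann cells (753, 534 and 517 against 699 to 742 CPM). In both, knockout-labelled animals 2 and 3 lay below all wild-type libraries. Sums of melanocyte, photoreceptor, macrophage and skeletal muscle markers overlapped too, with median log2 fold changes of 0.03, 0.10, 0.10 and 0.54. The part of these cell types in the collagen differences was not tested.

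With the mean log2 CPM of the sclera and cartilage markers as a covariate, chosen after seeing the data, the log2 fold change of Col1a1 was -0.55 (SE 0.21, edgeR adjusted p = 0.166). Under that model Col6a2 was at -0.47, Col5a1 at -0.38, Col1a2 at -0.14 and Col6a1 at -0.08, while Col11a1 (-0.75), Col5a2 (-0.38) and Col5a3 (-0.86) kept values near or beyond those without it. Col3a1 turned to 0.13. With the fibroblast markers in that place Col1a1 was at -0.82, Col6a2 at -0.59, Col1a2 at -0.29 and Col3a1 at 0.08. With the markers of cornea and conjunctiva in that place all 10 stayed below 0 and 9 of them were at or beyond their values without it, Col1a1 at -1.47 and Col6a2 at -1.10 (adjusted p = 0.0391, the 1 member called, against 0.0253% of all genes). The exception was Col5a3, at -0.67. The marker levels differ between the groups themselves, so what they share with genotype cannot be told apart in 6 libraries.

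**Figure D4:**
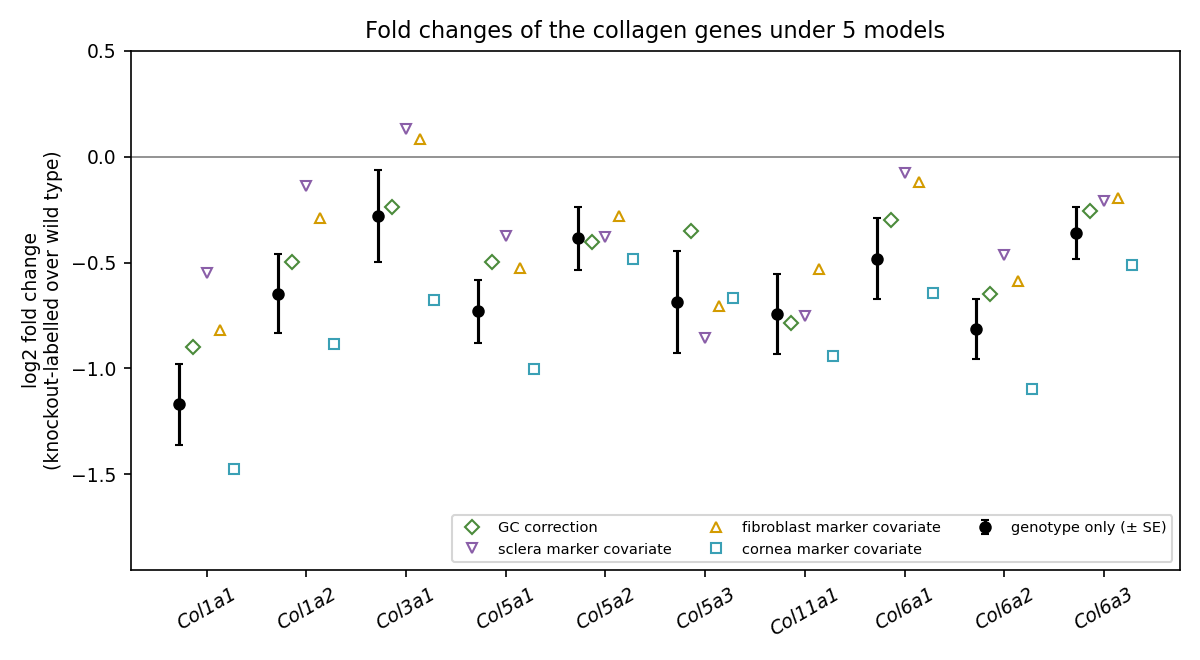
Log2 fold change of each collagen gene with genotype alone (black, with SE from edgeR) and, as open symbols, with the GC correction or with a marker covariate. Col1a1, Col5a1, Col5a3, Col6a2 and Col11a1 stay at -0.35 or lower under all 5 models, Col1a2 and Col6a1 come to -0.14 and -0.08 with the sclera marker covariate, and Col3a1 lies above 0 with the sclera and the fibroblast marker covariates.

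The 6 remaining tested chains of these classes also had lower mean levels, with a median of -0.68. Of these edgeR called 0 (0.0506% of all genes tested were called). At an unadjusted p under 0.05, 2 were lower, as were 6.62% of all genes tested. Col24a1, a further fibrillar collagen, stood at 5.88 ± 2.22 in knockout-labelled against 6.22 ± 0.59 CPM in wild-type libraries with overlapping groups (SD, n = 3 each; log2 fold change -0.08, edgeR adjusted p = 0.938). Col11a2, which encodes a partner of the Col11a1 product and is named here after its values were seen, stood at 1.52 ± 0.80 CPM in knockout-labelled and 6.73 ± 1.91 CPM in wild-type libraries (SD, n = 3 each; log2 fold change -2.14, edgeR adjusted p = 0.142). Col27a1 stood at 23.9 ± 3.97 and 33.7 ± 6.59 CPM and Col2a1, the cartilage collagen, at 16.9 ± 6.09 and 21.3 ± 13.4 CPM (SD, n = 3 each). In Col2a1 the groups overlapped, and its log2 fold change of -0.33 was -0.01 with the GC correction.

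Genes that fold, trim, bind and break down collagen were taken as 6 lists, and edgeR called 0 members of any. Counts at an unadjusted p under 0.05 stand beside each list. Over all 15796 genes tested, 48.8% lay below 0 and 0.0506% were called. At that unadjusted p there were 2238 genes, of which 1045 were lower (6.62% of all genes tested). Of 21 genes of procollagen folding and hydroxylation in the endoplasmic reticulum, 14 lay below 0 and 7 above, with a median of -0.11 (5 lower and 1 higher at that p). Serpinh1, the collagen chaperone HSP47, stood at 196 ± 8.58 against 265 ± 13.8 CPM without overlap (log2 fold change -0.43, edgeR adjusted p = 0.195), while P4hb, a subunit of prolyl hydroxylase, stood at 538 ± 23.6 against 503 ± 35.8 CPM and Crtap at 113 ± 14.5 against 123 ± 10.1 CPM (SD, n = 3 each). Of 12 genes of propeptide removal and cross-linking, 11 lay below 0 (median -0.36, 4 lower at that p). Loxl1, a lysyl oxidase, stood at 89.7 ± 6.72 against 161 ± 9.50 CPM (log2 fold change -0.85, edgeR adjusted p = 0.0502). Bmp1, the C-propeptide protease, stood at 58.5 ± 5.54 against 82.0 ± 9.85 CPM, and its enhancer Pcolce at 527 ± 140 against 704 ± 12.7 CPM (SD, n = 3 each).

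Of 12 fibril partners and organisers, 10 lay below 0, with a median of -0.34 (4 lower and 1 higher at that p). Sparc, a collagen-binding glycoprotein that acts as an extracellular chaperone, stood at 1940 ± 180 against 2905 ± 649 CPM (log2 fold change -0.58), Col12a1 at 276 ± 45.5 against 364 ± 78.9 CPM, and Aebp1 at 257 ± 9.89 against 276 ± 24.8 CPM (SD, n = 3 each). Tgfbi, named after its values were seen, was the opposite, at 258 ± 101 against 129 ± 24.8 CPM (log2 fold change 1.01, edgeR adjusted p = 0.186; SD, n = 3 each). Receptors and uptake genes had a median of -0.16, with 9 of 12 below 0 (3 lower at that p). Itgb1, the beta subunit of the collagen-binding integrins, stood at 352 ± 35.5 against 325 ± 32.5 CPM and Ddr1, a collagen-activated kinase, at 146 ± 24.3 against 177 ± 36.4 CPM (SD, n = 3 each). Antxr1, an anthrax toxin receptor that binds collagen, stood at 158 ± 41.8 against 162 ± 22.1 CPM with overlapping groups (SD, n = 3 each; log2 fold change -0.04, edgeR adjusted p = 0.946).

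Genes of collagen breakdown were the 1 list with a median above 0 (0.07, with 6 of 9 above 0, 2 higher and 1 lower at that p). Those 3, named after their values were seen, were Mmp13 (log2 fold change 4.22), Prep (0.43) and the lower Pepd (-0.51). Mmp13 was scarce and its groups overlapped, with knockout-labelled animal 1 far above the rest. It stood at 29.3, 0.55 and 6.45 CPM against 0.49, 1.20 and 0.28 CPM (edgeR adjusted p = 0.185). The cathepsins Ctsb and Ctsl stood at 1761 ± 181 against 1574 ± 234 CPM and 1052 ± 93.0 against 1004 ± 150 CPM, and the membrane collagenase gene Mmp14 at 236 ± 18.7 against 225 ± 16.6 CPM (SD, n = 3 each), all with overlapping groups. Of 17 genes of the TGF-beta pathway and other stromal regulators, 13 lay below 0 (median -0.21, 4 lower at that p). Ctgf, a matricellular target of that pathway, stood at 491 ± 79.5 against 790 ± 157 CPM (log2 fold change -0.69, edgeR adjusted p = 0.185), the receptor gene Tgfbr2 at 216 ± 26.2 against 239 ± 9.05 CPM and Yap1 at 278 ± 31.4 against 311 ± 33.3 CPM (SD, n = 3 each).

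**Figure D5:**
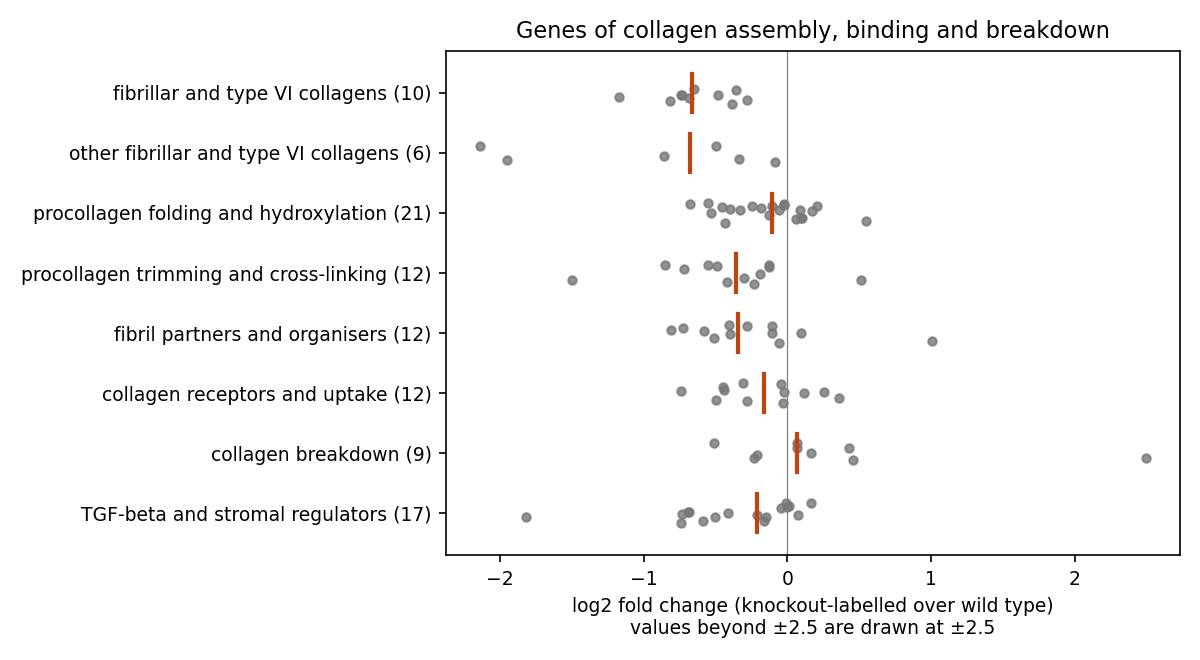
Log2 fold change of each tested gene (grey) in the collagen genes and the lists of related genes, number tested in brackets, with the median of each list as a red bar; values beyond 2.5 are drawn at 2.5. The median is -0.67 for the 10 collagen genes, -0.36 for trimming and cross-linking and -0.11 for folding and hydroxylation, and breakdown is above 0 at 0.07.

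Among 10367 other named genes averaging 10 CPM or more, those whose log2 CPM followed the mean of the 10 collagen genes most closely over the 6 libraries were Plat (Pearson's r = 0.989), Samd4 (0.986), Lrp6 (0.984), Fmo5 (0.982), Adamtsl3 (0.981) and Smoc1 (0.981). Plat encodes tissue plasminogen activator and stood at 64.8, 71.7 and 65.8 CPM with the knockout label against 93.9, 82.2 and 84.7 CPM in wild type. Lrp6, a Wnt co-receptor, stood at 216, 243 and 232 CPM against 339, 283 and 319 CPM. Smoc1, a secreted calcium-binding protein of basement membranes, stood at 85.6, 114 and 96.5 CPM against 153, 126 and 142 CPM. All genes were read from the same 6 libraries, and with 6 points out of so many genes such values describe the libraries only.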

How the data were processed

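Polyadenylated RNA of the RPE-choroid was sequenced from 3 knockout-labelled and 3 wild-type mice, 1 library per animal. Per the submitters' processing notes the authors aligned reads with TopHat and Bowtie to mm10 and counted them per gene with HTSeq. The sources used here give no versions, annotation or strand setting, so reads of overlapping genes on opposite strands may be mixed. The deposited table holds whole-number counts (23420 genes, 5 tally rows left out). A second deposited table gives the authors' edgeR results (log2 fold change, log2 CPM, p-value and FDR), with fold changes as wild type over knockout.

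Counts were tested in edgeR 4.0.16 (R 4.3.3): filterByExpr (minimum count 10, minimum total 15), TMM, then glmQLFit and glmQLFTest on genotype alone. P-values of the 15796 tested genes were adjusted by Benjamini-Hochberg, with calls at an adjusted p under 0.05. SE is the absolute log2 fold change over the square root of F. CPM is the count per 1000000 of the TMM-adjusted library size. The common coefficient of biological variation was 0.28. Scripts were tested on simulated data. The labels do not say that animals came from separate litters, so p-values measure the spread between these 6 animals.

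Loci, lengths and GC content came from GENCODE M21 (GRCm38, the same build as mm10) and promoters from RefSeq. The GC correction used a lowess trend (span 0.3) of log2 CPM on GC content, on genes above 2 log2 CPM, and covered 99.1% of tested genes. Alternatives used DESeq2 1.42.0 and limma-voom (limma 3.58.1), other factors, filters and covariates, and each library left out. Genes named are the members, from each list of related genes the called ones or else the 3 of highest mean CPM, and the 6 most alike genes. That rule does not cover marker genes and the genes marked as named after their values were seen: apart from the 3 of highest mean CPM in the fibroblast and the sclera lists, markers were picked with their values known. The 10 members and the lists were chosen with earlier results of these data known.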

Additional observations from a re-analysis of the deposited data

How the results depend on the processing

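All 10 collagen genes stayed below 0 under 18 alternatives (180 of 180 values), with the exception of 2 covariates named next, and 14 of those values passed, in 5 genes. Their median of -0.67 moved to -0.45 with the GC correction (-0.45 with the replicate block added), -0.38 with the sclera and -0.41 with the fibroblast marker covariate. The sclera and fibroblast covariates were chosen after seeing the data, and under them Col3a1 turned to 0.13 and 0.083. Members called went from 0 to 1 without a filter, 5 with DESeq2, 4 with the exact test, 1 with the cornea marker covariate and 0 to 3 without 1 library (3 without knockout-labelled animal 1). The count over all genes, 8, went to 15 with upper-quartile factors, 22 without a filter, 16 with the stricter filter (1 CPM in 3 libraries), 483 with DESeq2, 13 with limma-voom, 357 with the exact test, 1 with the sex covariate, 397 with the sclera and 0 with the fibroblast marker covariate (3034 at an unadjusted p under 0.05). Without 1 library it ran from 0 to 795: leaving out knockout-labelled animal 1 gave 795, leaving out wild-type animal 2 gave 1, and leaving out knockout-labelled animals 2 or 3 or wild-type animal 3 gave 0 (1516, 1719 and 1738 at that unadjusted p). The causes were not tested.

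The labels do not say whether animal numbers pair the groups. Deviations of same-numbered libraries from their group means correlated at -0.18, -0.23 and -0.15, which cannot settle it with 3 libraries a group. The numbers do match in sex, with animal 1 female in both groups. With the number as a replicate block 1 gene was called, with and without the GC correction, and 0 members. All 4 chain ratios kept their direction, but leaving out 1 library moved 3 of them by over 1.5 times: Col6a3 to Col6a1 ran from 0.0015 to 0.27, Col5a1 to Col5a2 from -0.49 to -0.20 and Col6a2 to Col6a1 from -0.52 to -0.22, against -0.58 to -0.48 for Col1a1 to Col1a2. The scarcest member, Col5a3, had 183 to 456 counts per library, and 3 animals a group limit the precision of every value.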
